A study of Mus musculus with 18 samples.

Results

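The high-numbered zinc finger genes are the mouse genes whose symbol is Zfp followed by a whole number of 500 or more and that are listed in both deposited count tables, a table of dorsal root libraries and a table of sciatic nerve libraries. There are 127 of them among the 12782 named genes found in both tables. For 126 of the 127 at least 1 identical transcript stands in both tables, and all values below are of these; Zfp672 is listed by different transcripts in each. The symbol and the listing in both tables were the criteria, and the rule uses no measured difference between samples. The 119 lower-numbered Zfp genes, of which 118 have such a transcript, are the most similar set and are given beside them.

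The study asked which RNAs travel with Kif5A, a neuronal kinesin heavy chain that carries cargo along the microtubules of axons. C57B6 mice gave both tissues, the sciatic nerve (SN) and the dorsal root (DR), and 5 animals were pooled for each of 3 independent repeats. The tissue was ground and spun, and the supernatant was taken as enriched axoplasm. RNA was sequenced from material precipitated with a rabbit antibody to Kif5A, from material precipitated with rabbit IgG, and from the input. This gives 6 groups of 3 libraries: SN Kif5A, SN IgG, SN input, DR Kif5A, DR IgG and DR input. All groups came from the same strain with no genetic change or treatment named, the labels used here give no age, and a repeat is a pool and not an animal. Since whole tissue was ground, the lysate was not limited to axons.

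C2H2 zinc finger proteins bind DNA through strings of small loops, each folded around a zinc ion that is held by a pair of cysteines and a pair of histidines. They form the largest family of transcription factors in mammals. Many also carry a KRAB box, which recruits Trim28 and through it the histone methyltransferase Setdb1 and heterochromatin proteins; this machinery is best known for silencing retroelements in the early embryo. Genes of the KRAB group arose largely by tandem duplication and stand in clusters, so neighbours can be alike in sequence. Their mRNAs are known to be scarce in most tissues.

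The members lay on 17 chromosomes. Chromosome 7 held 36 of the 127, chromosome 17 held 19, chromosome 8 held 11 and chromosome 13 held 10. In the translated coding sequence of the listed transcripts of GENCODE M21 (GRCm38), 112 members had at least 1 finger by the pattern of 2 residues between the cysteines, 12 up to the first histidine and 3 to 5 between the histidines. The largest number was 33, in Zfp619. A KRAB box pattern (leucine, tyrosine, any 2 residues, valine, methionine, any residue, glutamate) stood in 58 members and was not found in 64. The KRAB members had a median of 11.5 fingers, against 7.0 in the others. The other 5 members (Zfp523, Zfp687, Zfp688, Zfp939 and Zfp952) were represented by transcripts that the annotation does not call coding.

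A finger and the linker behind it fill 84 bases. The units below are the first in each gene that have 3 residues between the histidines and are followed by the common linker (threonine, glycine, glutamate, lysine, proline); 81 of the 122 coding members have such a unit. They are shown because these genes are among those that carry the differences described below (Zfp868 is the neighbour of Zfp869), and Zfp870, which also belongs to them, has no unit of this form. Each is read 5′ to 3′ on the strand of the gene from GENCODE M21, and the capitals mark the codons of the cysteines and histidines that hold the zinc.
Zfp869: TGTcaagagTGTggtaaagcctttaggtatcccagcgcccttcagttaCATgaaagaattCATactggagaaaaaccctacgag
Zfp868: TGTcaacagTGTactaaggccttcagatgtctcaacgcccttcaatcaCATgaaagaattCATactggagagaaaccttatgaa
Zfp709: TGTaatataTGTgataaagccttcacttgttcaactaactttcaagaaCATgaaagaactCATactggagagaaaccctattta
Zfp882: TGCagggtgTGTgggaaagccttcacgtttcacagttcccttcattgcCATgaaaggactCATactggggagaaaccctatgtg
Zfp583: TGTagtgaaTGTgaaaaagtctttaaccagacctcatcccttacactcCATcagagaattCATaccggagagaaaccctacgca
Zfp948: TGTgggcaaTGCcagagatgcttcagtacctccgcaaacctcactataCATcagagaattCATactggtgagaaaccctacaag
Zfp612: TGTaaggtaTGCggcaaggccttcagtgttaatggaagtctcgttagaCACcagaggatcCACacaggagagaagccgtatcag
These stand in coding exons at chr8:69707295-69707378 (Zfp869, minus strand), chr8:69612047-69612130 (Zfp868, minus), chr8:71889491-71889574 (Zfp709, plus), chr8:71914591-71914674 (Zfp882, plus), chr7:6317292-6317375 (Zfp583, minus), chr17:21587193-21587276 (Zfp948, plus) and chr8:110089009-110089092 (Zfp612, plus), all GRCm38. Of the 84 bases of the Zfp869 unit, 69 were the same in the Zfp868 unit, 63 in Zfp882, 58 in Zfp709, 57 in Zfp583, 51 in Zfp948 and 47 in Zfp612. Zfp868 was the closest of the 6.

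Likeness in sequence bears on how reads were assigned, since no label or header states the counting rule. Of the members, 54 shared no stretch of 50 bases with a transcript of another gene, and 22 shared over 10% of their stretches. Zfp935 shared 100% of its stretches, nearly all with Gm49359, and Zfp960 shared 82.7%, nearly all with Zfp97. The values of both are uncertain for that reason. The same holds to a smaller degree for other members, among them Zfp524 (56.8%), Zfp934 (44.1%), Zfp808 (43.1%), Zfp963 (39.4%) and Zfp932 (37.5%). Lower shares were those of Zfp653 (22.9%), Zfp947 (20.1%), Zfp865 (19.1%) and Zfp566 (15.6%). Zfp869 shared 9.35% of its stretches with Zfp868, and Zfp612, Zfp583 and Zfp647 shared none. Whether the library kit or the counting kept strand is not stated either, so reads from an overlapping antisense gene cannot be told apart from those of a member.

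The 18 libraries held 11584418 to 22580824 reads assigned to named genes. Levels of single genes are given as CPM, the usual library-size-scaled read count. Their library size is the reads of named genes, with TMM factors. Levels summed over several genes use the same library size without TMM factors, so sums and single-gene values are not on the same scale. In the inputs, the summed sensory neuron markers (6 measured) came to 94.5 CPM in SN inputs and 799 CPM in DR inputs, and the myelinating Schwann cell markers (5 measured) to 19084 and 22117 CPM. Central glia markers (Gfap and Aqp4) came to 4.99 CPM in SN inputs, against 427 CPM in DR inputs, and adipocyte markers (Adipoq and Fabp4) to 2573 CPM in SN inputs, against 37.6 CPM in DR inputs.

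Zinc finger mRNAs were measurable in the inputs, which were not limited to axons, at low to middling levels. Per kilobase of transcript, the median member stood at 4.28 CPM per kb over the 6 inputs, the median lower-numbered Zfp gene at 3.22 and the median of all genes at 5.88. Of the members, 58.7% lay below the median gene. The median was 4.26 CPM per kb for KRAB members and 4.75 for those without the box. The family thus ran somewhat under the typical gene in inputs.

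A few members were abundant. Zfp706, a short zinc finger protein known in mouse embryonic stem cells for holding back exit from self-renewal, was the highest at 249 ± 67.8 CPM per kb in SN inputs and 275 ± 34.6 CPM per kb in DR inputs (SD, n = 3 each), above 97.2% of all genes. Zfp560 followed at 210 ± 55.8 CPM per kb in SN inputs and 206 ± 35.9 CPM per kb in DR inputs. The next were Zfp771, Zfp524, Zfp536, Zfp580, Zfp511 and Zfp655, with means of 41.5 down to 26.7 CPM per kb over both tissues, and each differed from the next in this order by less than its spread over SN inputs. Zfp560 had a mean of 131 CPM in DR input, less than its value per kb, so a listed transcript of it is shorter than a kilobase. Such a transcript is too short for the Zfp560 protein of 754 residues. The rank of Zfp560 thus does not give the level of the transcript that encodes this protein. Zfp536 is a repressor known for restraining neuronal differentiation. All members together took 3411 to 4150 CPM in SN Kif5A, 3229 to 3558 in SN IgG, 3522 to 3572 in SN inputs, 3714 to 5780 in DR Kif5A, 4168 to 6081 in DR IgG and 3202 to 3655 in DR inputs. Without Zfp706 the sum was 2269 to 2711 CPM in SN inputs and 2156 to 2406 CPM in DR inputs.

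**Figure D1:**
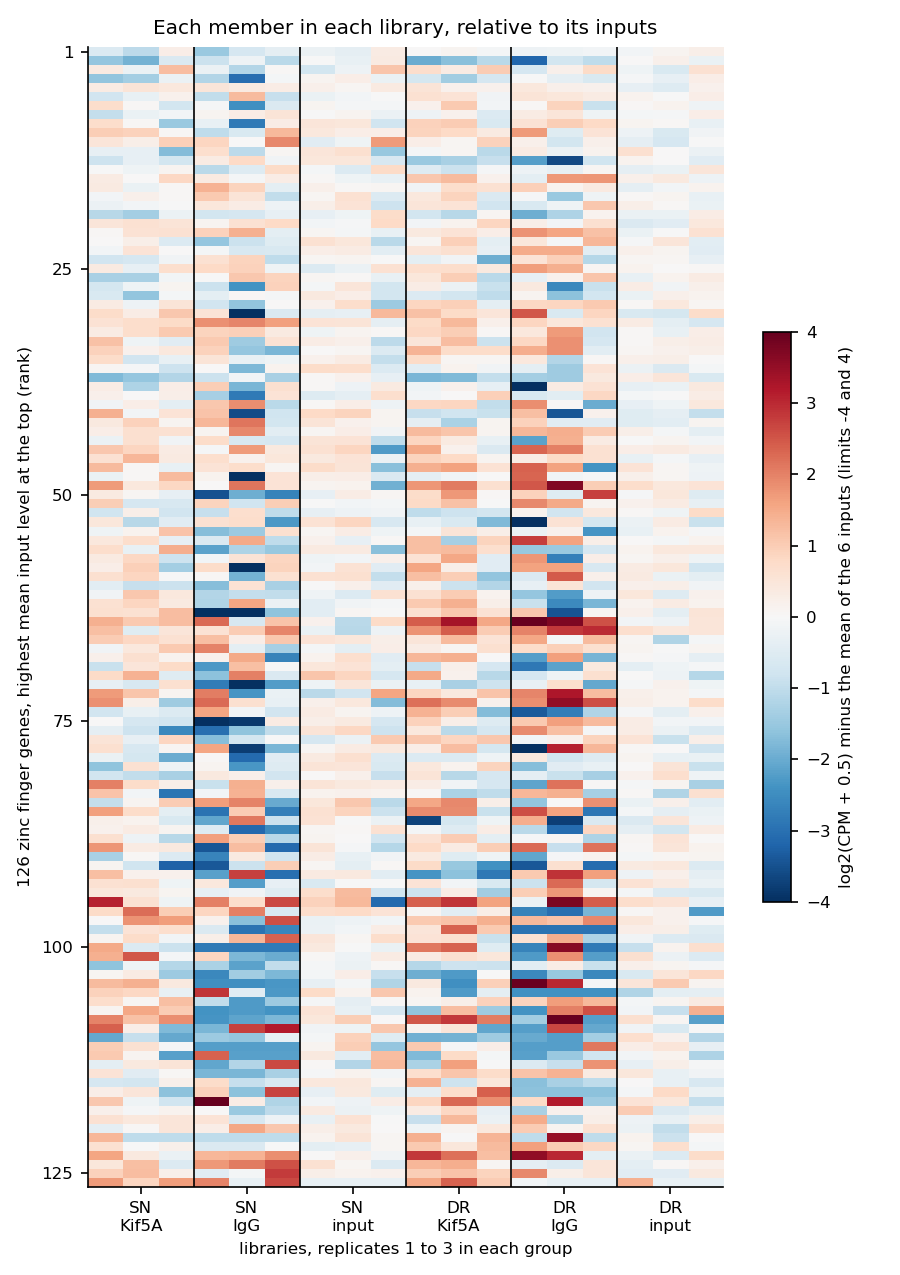
Each row is 1 of the 126 members and each column a library, in the order SN Kif5A, SN IgG, SN input, DR Kif5A, DR IgG and DR input; colour is log2(CPM + 0.5) minus the mean of the 6 inputs of that gene, with red higher and blue lower. The input columns are pale, and the IgG columns are the most uneven, matching median coefficients of variation of 78.3% in SN IgG and 68.6% in DR IgG.

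The clearest feature of the family was how uneven it was in the precipitates. The coefficient of variation over 3 libraries had a median of 45.2% over the members in SN Kif5A, 78.3% in SN IgG and 32.8% in SN input. It was 42.3% in DR Kif5A, 68.6% in DR IgG and 24.7% in DR input. For all genes the same medians were 37.6%, 58.5% and 37.2% in SN and 33.1%, 60.0% and 22.1% in DR, so IgG was the most variable group for the whole transcriptome as well. The members ran above all genes in the 4 precipitate groups, but so did the lower-numbered Zfp genes, at 39.3% and 77.1% in SN Kif5A and SN IgG and 38.2% and 71.4% in DR Kif5A and DR IgG.

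Gene by gene, the coefficient of variation was larger in SN IgG than in SN input in 97 of 122 members (79.5%, against 70.3% of all genes). In dorsal root it was larger in IgG than in input in 104 of 123 members (84.6%, against 86.2% of all genes). In SN IgG, 24 members (19.0%, against 15.4% of all genes) had over 80% of their group's CPM in a single library, and in DR IgG 18 did (14.3%, against 13.9%), while every other group had at most 3 such members. At least 1 library was at 0 for 18 members in SN IgG and for 17 in DR IgG, against 1 to 4 members in the other groups; of all genes, 15.7% had a 0 in SN IgG and likewise in DR IgG. Members missing from an IgG library were therefore about as common as such genes overall.

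**Figure D2:**
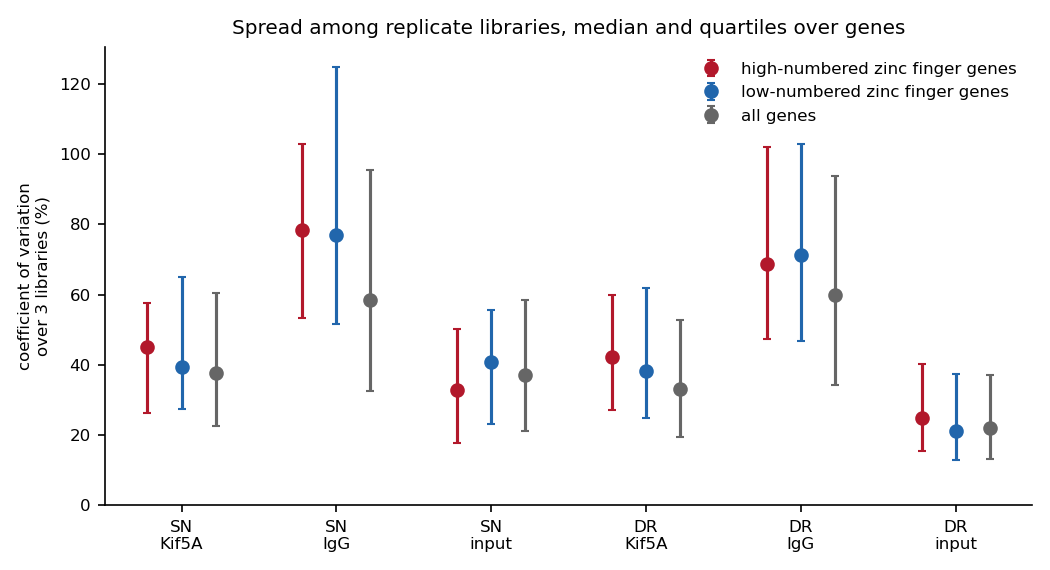
Points are the median over genes of the coefficient of variation among the 3 libraries of a group, in percent, and bars run from the lower to the upper quartile, for the members, the lower-numbered Zfp genes and all genes. The IgG groups stand highest for all 3 sets, at 78.3% and 68.6% for the members.

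Kif5A precipitates were compared with IgG precipitates of the same tissue, which is the comparison that asks for association with the motor. No member passed the test in either tissue. By the quasi-likelihood test of edgeR with Benjamini-Hochberg adjustment over all genes, 0 of the 125 members tested had an adjusted p under 0.05 in sciatic nerve, where 0.0478% of the 12551 genes tested did, and 0 of 125 in dorsal root, where 0.0% did. At an unadjusted p under 0.05, 12 members were higher and 2 lower in SN Kif5A (9.6% and 1.6%, against 6.18% and 2.26% of all genes tested), and 10 were higher and 2 lower in DR Kif5A (8.0% and 1.6%, against 4.33% and 1.65%). The median member stood at a log2 ratio of 0.02 in SN and -0.16 in DR, against -0.02 and -0.01 over all genes. By limma-voom it was 0.42 in SN and 0.10 in DR, and by RLE scaling -0.001 in SN, so its own sign was not stable. The median of all genes also moved with the scaling. Members minus all genes came to 0.03, 0.04 and 0.06 in SN by TMM, RLE and library size alone. In DR the same differences were -0.15, -0.17 and -0.19. No median of all genes by limma-voom is given here. DESeq2, run as an alternative, called 12 of 124 members in SN (9.68%, against 3.28% of all genes it tested) and 5 of 124 in DR (4.03%, against 1.21%).

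**Figure D3:**
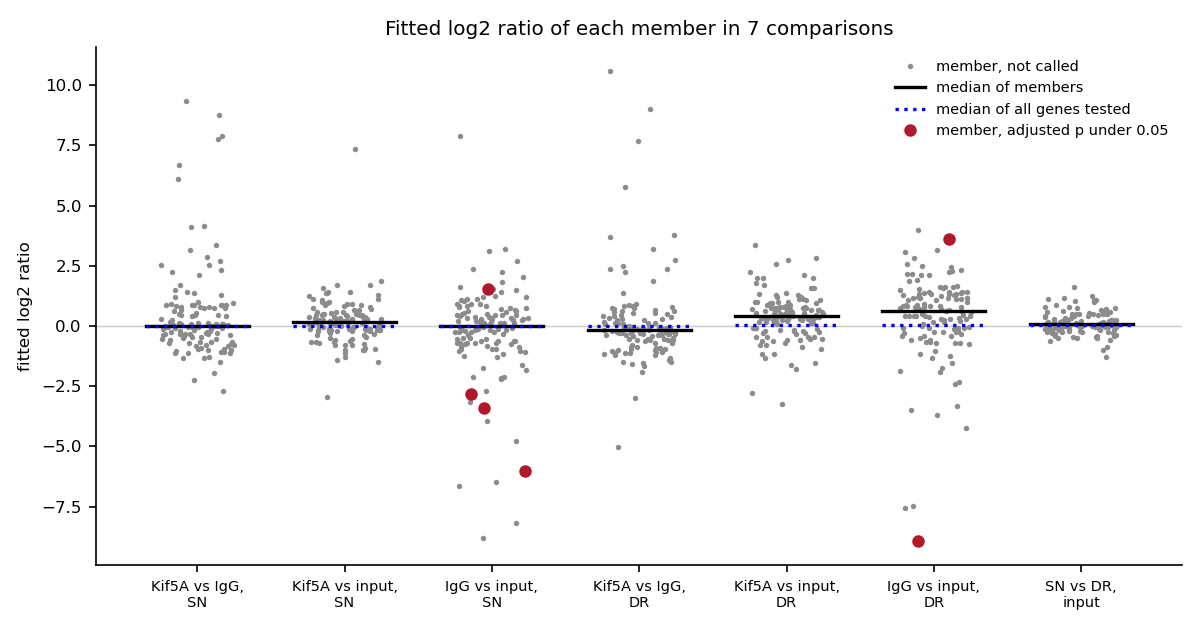
Each grey point is the fitted log2 ratio of a member, large red points have an adjusted p under 0.05, and the black and dotted blue lines are the medians of the members and of all genes tested. Called members appear only in the comparisons of IgG with input, 4 in SN and 2 in DR, and the points of genes at 0 in a group depend on the prior count of the fit.

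Zfp882, a member with 13 fingers and no KRAB pattern, had a small unadjusted p with Kif5A higher in both tissues. It had 25.7, 12.6 and 43.6 CPM in SN Kif5A, against 3.21, 6.4 and 5.13 CPM in SN IgG. It had 37.0, 38.5 and 25.1 CPM in DR Kif5A, against 5.21, 5.3 and 9.7 CPM in DR IgG. In both tissues all 3 Kif5A libraries were above all 3 IgG libraries. The log2 ratio was 2.52 ± 0.63 (SE) in SN and 2.37 ± 0.62 in DR, with adjusted p = 0.199 and 0.414. Its inputs held 20.3, 20.3 and 4.55 CPM in SN and 17.3, 21 and 21.3 CPM in DR, so in DR the Kif5A libraries were above the inputs and the IgG libraries below them.

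Several of the other small p-values rested on IgG groups with no counts. Zfp709, also on chromosome 8, had 4.93, 19.4 and 7.61 CPM in DR Kif5A and 0 in all 3 DR IgG libraries, and was at least 158-fold higher in Kif5A when the IgG group is set at the floor of 3 counts (adjusted p = 0.393). By the same floor Zfp599 was at least 54.2-fold and Zfp526 at least 20.9-fold higher in DR Kif5A (adjusted p = 0.599 and 0.602). In sciatic nerve Zfp934, Zfp558 and Zfp940 were at 0 in all IgG libraries and at least 86.9-fold, 60.9-fold and 12.8-fold higher in Kif5A (adjusted p = 0.348, 0.311 and 0.647). Zfp934 shares 44.1% of its 50-base stretches with other genes, mostly Zfp808. Zfp940 had all its SN Kif5A reads in replicate 1. All 6 had reads in the IgG group of the other tissue, though not in every library, as Zfp558 had 0, 0 and 9.36 CPM in DR IgG.

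Others had a single count. Zfp647 had 6.12, 6.74 and 3.07 CPM in SN Kif5A, against 0, 0 and 0.0454 CPM in SN IgG, where the last value is 1 read; the ratio was 341, with an exact 95% interval of 60.8 to 13500 that covers counting error only (adjusted p = 0.204). In dorsal root the same gene pointed the other way, with 3.07, 0 and 4.76 CPM in Kif5A, against 41.5, 21.6 and 2.07 CPM in IgG (log2 ratio -2.99 ± 1.49, adjusted p = 0.887). Zfp661 likewise had 2.31, 7.16 and 4.84 CPM in SN Kif5A, against 1 read over 3 libraries in SN IgG (ratio 316, interval 56.2 to 12500, adjusted p = 0.247). Zfp653 had 82 reads in DR Kif5A, against 1 read in DR IgG (ratio 67.7, interval 11.8 to 2710, adjusted p = 0.56).

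Among better covered members, Zfp870 had 25.2, 20.4 and 15.2 CPM in SN Kif5A, against 1.27, 4.69 and 2.63 CPM in SN IgG (log2 ratio 2.87 ± 0.81, adjusted p = 0.24). Zfp566 had 28.6, 36.7 and 15.8 CPM in DR Kif5A, against 7.08, 1.92 and 3.44 CPM in DR IgG (log2 ratio 2.75 ± 0.80, adjusted p = 0.475). For both genes the 2 groups did not overlap.

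On the low side, Zfp948 had 42.2, 45.9 and 47.9 CPM in SN Kif5A, against 102, 111 and 89.5 CPM in SN IgG (log2 ratio -1.11 ± 0.35, adjusted p = 0.292). Zfp748 had 13.4, 13.2 and 31.0 CPM in SN Kif5A, against 33.1, 71.6 and 62.2 CPM in SN IgG (adjusted p = 0.497). In dorsal root Zfp639 had 48.4, 53.9 and 44.0 CPM in Kif5A, against 129, 111 and 83.1 CPM in IgG (log2 ratio -1.09 ± 0.42, adjusted p = 0.693). These sets of libraries did not overlap, with IgG the higher one. Zfp947 had 0.493, 1.15 and 0.207 CPM in DR Kif5A, against 10.2, 37.4 and 15.5 CPM in DR IgG (adjusted p = 0.599), again without overlap. In all, 15 members were higher and 5 lower without overlap in SN Kif5A (background 9.34% and 6.62% of genes, members 12% and 4.0%), and 11 were higher and 6 lower in DR Kif5A (background 7.84% and 5.42%, members 8.8% and 4.8%).

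The difference between the tissues, SN Kif5A over IgG set against DR Kif5A over IgG, was tested directly. No member passed (0 of 125, against 0.0159% of genes tested, 0.00797% in each direction), with 9 members on each side at an unadjusted p under 0.05 (background 3.67% higher in SN and 2.71% lower). The smallest p was that of Zfp647, whose opposite values in the 2 tissues are given above (adjusted p = 0.237). Zfp870 came next among well covered members, with 32.8, 65.1 and 20.2 CPM in DR Kif5A, against 36.9, 13.8 and 131 CPM in DR IgG, where its DR libraries overlapped (difference of log2 ratios 3.45 ± 1.10, adjusted p = 0.527). Zfp865 had 3.75, 2.26 and 5.55 CPM in SN Kif5A, against 0.827, 0.0488 and 0.454 CPM in SN IgG, but 2.3, 2.59 and 4.5 CPM in DR Kif5A, against 4.34, 7.91 and 5.97 CPM in DR IgG (adjusted p = 0.604). Zfp507 went the other way, with 5.75, 8.25 and 6.91 CPM in SN Kif5A, against 31.5, 9.43 and 5.76 CPM in SN IgG, and 27.5, 20.9 and 2.69 CPM in DR Kif5A, against 0.534, 1.08 and 4.19 CPM in DR IgG (adjusted p = 0.565).

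Calls among the members were found when the IgG precipitates, which carry no antibody to the motor, were compared with input. In dorsal root 2 of 126 members passed (1.59%, against 1.23% of the 12681 genes tested), and in sciatic nerve 4 of 126 (3.17%, against 3.74%), of which 1 was higher and 3 lower in IgG (background 1.37% and 2.37%). In dorsal root 1 was higher and 1 lower (background 0.56% and 0.67%). The shares were close to those of all genes. At an unadjusted p under 0.05, 18 members were higher and 12 lower in DR IgG (14.3% and 9.52%, against 9.12% and 10.3%), and 6 were higher and 15 lower in SN IgG (4.76% and 11.9%, against 8.81% and 10.4%). Without overlap of the libraries, 23 were higher and 13 lower in DR IgG (background 12.3% and 18.1%), and 6 were higher and 18 lower in SN IgG (background 9.92% and 14.2%). These comparisons use the same IgG libraries as those of Kif5A with IgG, so a low IgG value enters both.

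Zfp869, a KRAB member with 12 fingers on chromosome 8 (69706332 to 69710724, minus strand), rose in DR IgG. It had 245, 172 and 74.9 CPM in DR IgG, against 11.6, 10.7 and 17.8 CPM in DR input. Every IgG library stood above every input, and the log2 ratio was 3.62 ± 0.70 (SE; adjusted p = 0.0321). The DR Kif5A libraries, at 69.9, 131 and 37.7 CPM, also lay above the inputs (log2 ratio 2.57 ± 0.67, adjusted p = 0.303) and overlapped with IgG. In sciatic nerve it had 34.2, 26.3 and 30 CPM in Kif5A, 61.4, 7.86 and 28.1 CPM in IgG and 14.0, 5.6 and 21.6 CPM in input, with Kif5A above the inputs and IgG spread across them. Zfp709 fell in DR IgG, where it was at 0 in all libraries, against 4.19, 4.14 and 2.32 CPM in DR input. At the floor of 3 counts it was at least 54.4-fold lower in IgG (adjusted p = 0.0411).

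**Figure D4:**
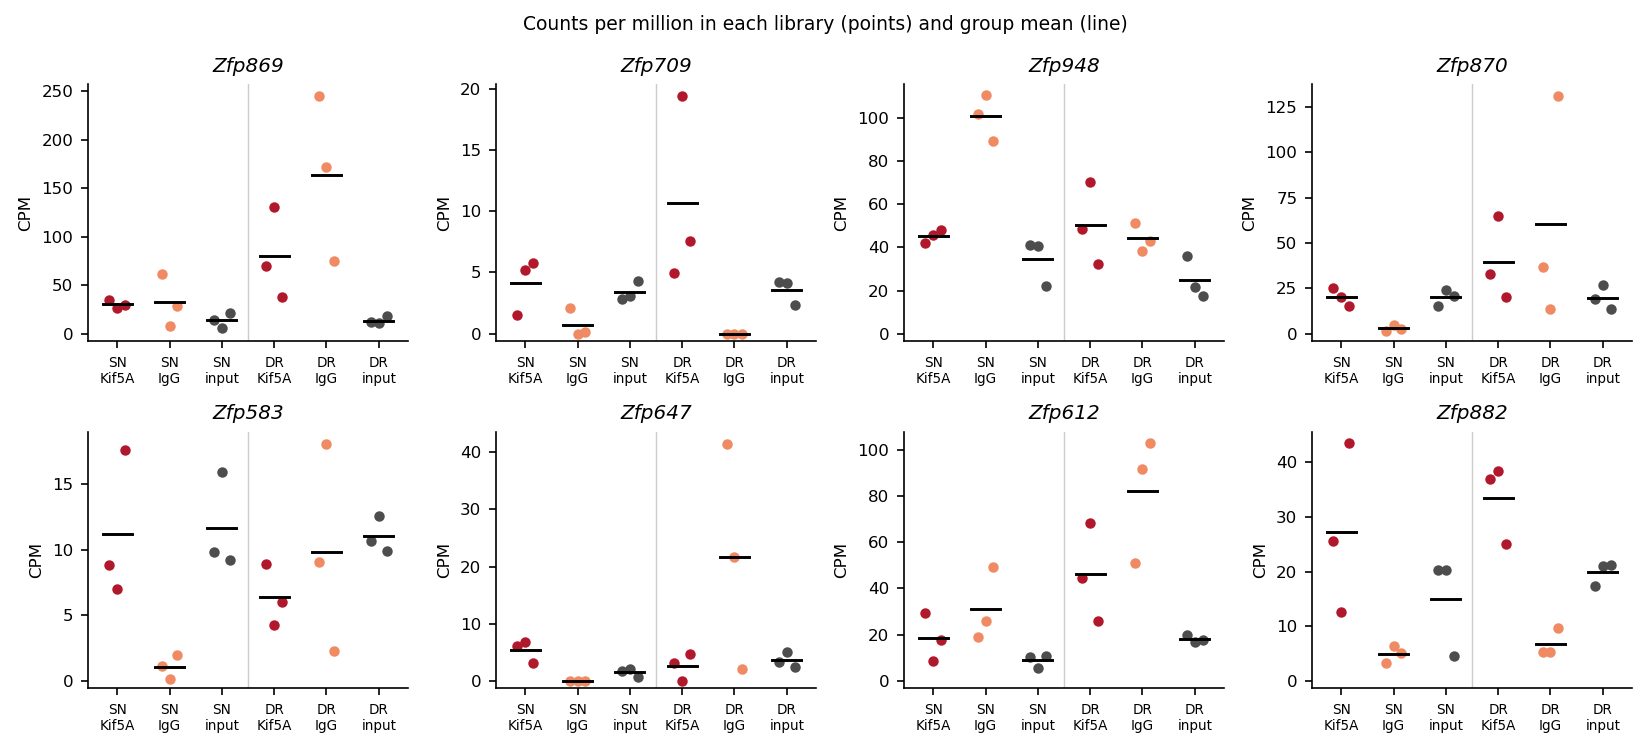
CPM (y) of 8 members in each library (points) with the group mean (line), for Kif5A, IgG and input of SN and then DR. Zfp869 and Zfp612 are high in DR Kif5A and DR IgG and low in every input, Zfp948 is highest in SN IgG, and Zfp870, Zfp583 and Zfp647 are low in every SN IgG library.

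In sciatic nerve Zfp948, a KRAB member with 15 fingers on chromosome 17 (21567008 to 21588699, plus strand), rose in IgG. Against its SN IgG values given above, the SN inputs held 41.3, 40.8 and 21.9 CPM (log2 ratio 1.54 ± 0.38, adjusted p = 0.0366), and all IgG libraries stood above all inputs. Zfp870, Zfp583 and Zfp647 fell in SN IgG. Zfp870 had 1.27, 4.69 and 2.63 CPM in SN IgG, against 15.5, 24 and 20.6 CPM in SN input (log2 ratio -2.81 ± 0.72, adjusted p = 0.0424). Zfp583 had 1.17, 0.147 and 1.95 CPM in SN IgG, against 9.8, 15.9 and 9.21 CPM in SN input (log2 ratio -3.41 ± 0.89, adjusted p = 0.0442). Both were as high in SN Kif5A as in SN input within their spread, at 20.3 ± 5.02 against 20.1 ± 4.31 CPM for Zfp870 and 11.2 ± 5.65 against 11.7 ± 3.73 CPM for Zfp583 (SD, n = 3 each). Zfp647 had 1 read in SN IgG, against 1.66, 2.07 and 0.682 CPM in SN input (ratio of input to IgG 87.5, exact 95% interval 15.1 to 3510, adjusted p = 0.0493).

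None of these 6 calls held in every run that left out 1 library, and the share of all genes called moved as well. In dorsal root no member was called without DR IgG replicate 1, where 0.063% of all genes were. None was called without DR input replicate 1, 2 or 3 either (0.0394%, 0.0473% and 0.102% of all genes). Without DR IgG replicate 2 only Zfp869 was called (0.473% of all genes), and without DR IgG replicate 3 both were called among 14 members (11.1%, against 10.6% of all genes). In sciatic nerve none of the 4 was called without SN IgG replicate 1, without SN IgG replicate 2 or without any of the SN input replicates. Without SN input replicate 1, 2 or 3, the shares of all genes called were 0.504%, 0.418% and 1.55%. The member called without SN IgG replicate 1 was Zfp709 (2.05% of all genes were called), and that without SN IgG replicate 2 was Zfp563 (1.78% of all genes). Without SN IgG replicate 3, 7 members were called (5.56%, against 6.69% of all genes), among them Zfp583 and Zfp948. Fitting the compared groups alone left 0 member calls in either tissue, and so did counting all transcripts of each tissue's own table. Of all genes, these fits called 0.0411% and 0.0377% in SN, and 0.0% in DR by both. With the compared groups alone, the adjusted p of Zfp869 was 0.102 and that of Zfp948 0.111, with log2 ratios of 3.67 and 1.56. Zfp647 was also not called with RLE scaling, library size alone, limma-voom or the replicate block. Of the 4 SN calls limma-voom kept Zfp583 and Zfp948, among 6 members called (4.76%, against 4.83% of all genes). In dorsal root limma-voom called Zfp869, Zfp709 and Zfp612 (2.38%, against 2.45% of all genes).

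Zfp612 came close to a call in both tissues. It had 51.2, 91.8 and 103 CPM in DR IgG, against 19.9, 17.0 and 17.6 CPM in DR input (log2 ratio 2.17 ± 0.53, adjusted p = 0.0523). It had 19.0, 25.7 and 49.2 CPM in SN IgG, against 10.2, 5.52 and 10.8 CPM in SN input (log2 ratio 1.82 ± 0.52, adjusted p = 0.061). In each tissue all IgG libraries were above all inputs. Its Kif5A libraries held 29.2, 8.72 and 17.8 CPM in SN and 44.5, 68.2 and 25.9 CPM in DR. Zfp639 had 129, 111 and 83.1 CPM in DR IgG, against 30.5, 36.3 and 55.9 CPM in DR input (adjusted p = 0.0729). Zfp503, a corepressor known from the developing striatum and hindbrain, lay on the other side with 9.82, 3.38 and 26.6 CPM in DR IgG, against 51.5, 47.0 and 34.1 CPM in DR input (log2 ratio -1.73 ± 0.56, adjusted p = 0.103). Zfp949 had 5 reads in SN IgG, against 57 in SN input (adjusted p = 0.061).

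As a set, the members leaned upward in DR IgG. Their median log2 ratio over DR input was 0.61, with 82 of 126 above 0, against 0.06 for all genes, of which 6636 of 12681 were above 0. The lower-numbered Zfp genes had the same median, 0.61. By limma-voom the median of the members was 0.12 in dorsal root. In sciatic nerve it was -0.001 by edgeR and -0.49 by limma-voom. The limma-voom medians have no median of all genes beside them, so a shift of all genes by that method cannot be told apart. The KRAB members together took 1454 to 2596 CPM in DR IgG, against 897 to 1024 CPM in DR input, without overlap, and the DR Kif5A libraries ranged from 839 to 2151 CPM. The members with no KRAB pattern took 2712 to 3685 CPM in DR IgG, against 2168 to 2755 CPM in DR input, which overlapped. That sum includes the abundant Zfp706, which was lower in DR IgG than in DR input without overlap (log2 ratio -0.25 ± 0.32, adjusted p = 0.451). Without Zfp706, all members together took 3173.5 to 4928.8 CPM in DR IgG, against 2156 to 2406 CPM in DR input. The overlap therefore does not set members with no KRAB pattern apart from KRAB members. These sums carry no TMM factors, which were 0.9512 to 1.1241 in DR IgG and 0.8789 to 0.9274 in DR input. With these factors the DR IgG sums would stand less far above input. With reads per library as the only scaling, the median of all genes moved by 0.24 in this comparison, and the members still stood 0.50 above it.

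Sums of nuclear RNAs and of markers of other cell types, again without TMM factors, are given for the same contrast. They were higher for some lists and lower for others. Nuclear-retained RNAs such as Malat1 and Neat1 (7 of 10 listed were measured, none at 0 in any group) summed to 28859 to 37560 CPM in DR IgG, against 2716 to 15330 CPM in DR input, and to 22570 to 46458 CPM in SN IgG, against 2016 to 17601 CPM in SN input. Adipocyte markers (2 of 4 measured, neither at 0) summed to 11039 to 23266 CPM in SN IgG, against 830 to 3515 CPM in SN input. Central glia markers (2 of 4 measured) summed to 643 to 1507 CPM in DR IgG, against 368 to 474 CPM in DR input, but to 0.918 to 4.47 CPM in SN IgG, against 4.00 to 6.72 CPM in SN input. Skeletal muscle markers (3 measured) summed to 26.5 to 40.8 CPM in DR IgG, against 53.3 to 90.1 CPM in DR input, and to 263 to 346 CPM in SN IgG, against 518 to 696 CPM in SN input. Macrophage markers (3 measured) summed to 227 to 335 CPM in DR IgG, against 473 to 566 CPM in DR input, and to 149 to 192 CPM in SN IgG, against 276 to 421 CPM in SN input. In dorsal root the fall of the macrophage sum was that of Tyrobp alone, at a mean of 246 CPM in IgG, against 542 CPM in input. Cd68 had 29.8 CPM in DR IgG, against 27.6 CPM in DR input, and Csf1r had 2.24, against 1.8 CPM. Their part in the values of the zinc finger genes was not tested.

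Of the genes that serve KRAB zinc finger proteins, 28 of those listed were measured. None was called in Kif5A against IgG (27 tested, 0 in either tissue), and Trim28, the common corepressor, had 32.7, 47.3 and 26.9 CPM in SN Kif5A, against 25.3, 32.9 and 25.1 CPM in SN IgG. In IgG against input, 1 of 28 was called in each tissue, and it was Mphosph8, a chromodomain subunit of the HUSH silencing complex, named after its values were seen. Mphosph8 had 238, 242 and 182 CPM in DR IgG, against 90.2, 94.6 and 47.8 CPM in DR input (log2 ratio 1.51 ± 0.32, adjusted p = 0.0395), and 142, 235 and 181 CPM in SN IgG, against 66.2, 65.8 and 54.0 CPM in SN input (log2 ratio 1.58 ± 0.32, adjusted p = 0.018). It was higher in every IgG library than in any input of its tissue. The median log2 ratio of the list was 0.35 in dorsal root and 0.19 in sciatic nerve.

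Zfp869 belongs to a group of zinc finger genes on chromosome 8 between 69209038 and 69791178 (GRCm38), in the order Zfp930, Zfp868, Zfp869, Zfp963 and Zfp866. The 4 neighbours were picked for their position after the values of Zfp869 were seen. They did not move alike. Zfp868, the closest in sequence, had 33.8, 9.75 and 18.8 CPM in DR IgG, against 26.4, 36.5 and 34.7 CPM in DR input (log2 ratio -0.65 ± 0.50, adjusted p = 0.498). Zfp930 had 112, 259 and 38.8 CPM in DR IgG, against 32.2, 26.2 and 28.9 CPM in DR input (log2 ratio 2.23 ± 0.71, adjusted p = 0.0993), with no overlap. Zfp866 had 32.1, 142 and 143 CPM in DR IgG, against 49, 55.1 and 36.5 CPM in DR input (adjusted p = 0.162). Zfp963, which shares 39.4% of its 50-base stretches with other genes, had 52.4, 1.84 and 18.2 CPM in DR IgG, against 16, 17.3 and 13.2 CPM in DR input (adjusted p = 0.692). The DR IgG library with the highest value differed from gene to gene: replicate 1 for Zfp869 and Zfp963, replicate 2 for Zfp930, and replicates 2 and 3 almost equally for Zfp866.

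**Figure D5:**
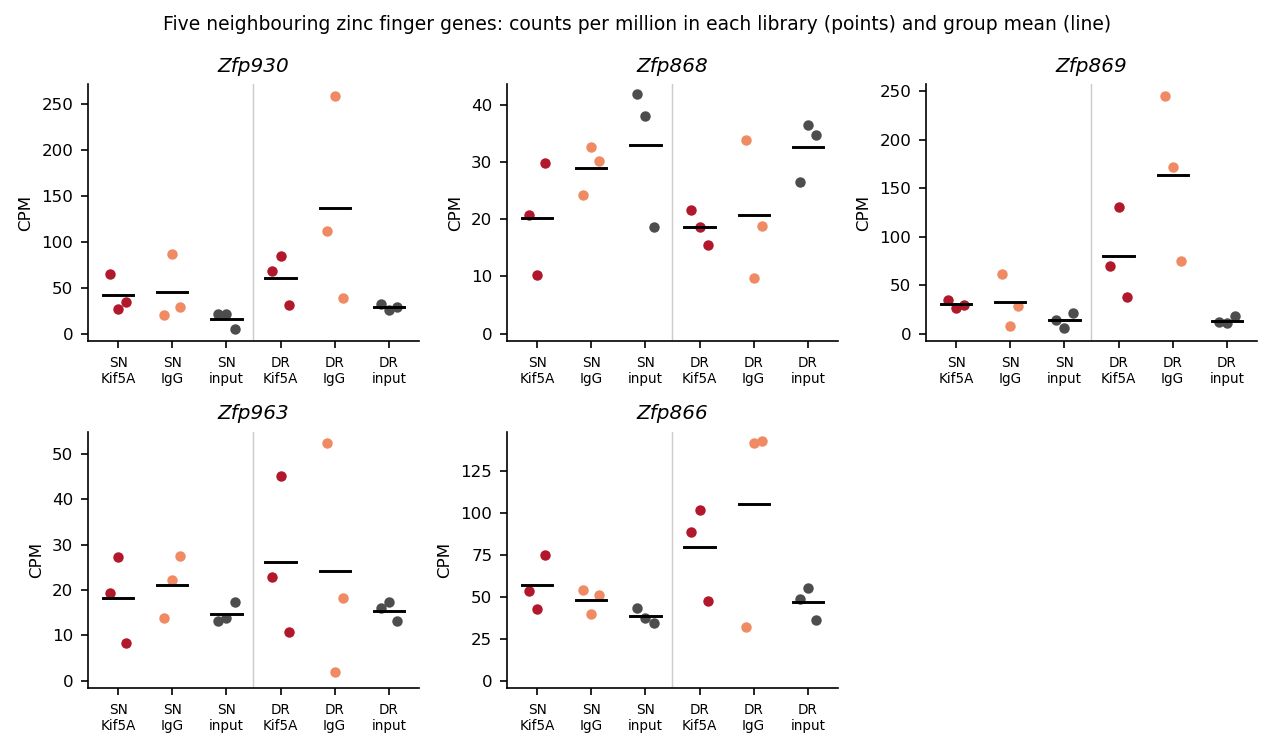
CPM (y) in each library (points) and group means (lines) for 5 zinc finger genes in their order along chromosome 8, for Kif5A, IgG and input of SN and then DR. Zfp869 and Zfp930 stand above all inputs in every DR IgG library, Zfp868 does not, and for each gene the DR inputs lie close together.

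Kif5A precipitates were also compared with input. No member passed, neither in sciatic nerve (0 of 126, against 0.00789% of genes) nor in dorsal root (0 of 126, against 0.0%). At an unadjusted p under 0.05, 1 member was higher and 3 lower in SN Kif5A (background 2.56% and 3.52%), and 6 were higher and 6 lower in DR Kif5A (background 3.28% and 5.11%). Without overlap, 14 were higher and 5 lower in SN Kif5A (background 8.22% and 9.23%), and 22 were higher and 10 lower in DR Kif5A (background 15.8% and 15.6%). The inputs are those used for IgG. DESeq2 called 0 members in sciatic nerve and 1 in dorsal root, Zfp869 (0.862%, against 1.48% of all genes it tested). The fit of the compared groups alone called 3 in dorsal root, Zfp869, Zfp808 and Zfp560 (2.44%, against 3.16% of all genes). The median log2 ratio of the members was 0.15 in SN and 0.40 in DR, against 0.02 and 0.06 over all genes, and that of the lower-numbered Zfp genes was 0.11 and 0.44.

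Zfp560, the second member in level per length of the listed transcripts, was low in Kif5A in both tissues. It had 44.5, 35.4 and 87.0 CPM in SN Kif5A, against 130, 106 and 169 CPM in SN input (log2 ratio -1.28 ± 0.50, adjusted p = 0.748). It had 32.8, 40.9 and 61.9 CPM in DR Kif5A, against 133, 150 and 110 CPM in DR input (log2 ratio -1.54 ± 0.50, adjusted p = 0.374). The groups did not overlap in either tissue, and IgG libraries lay mostly below the inputs as well, at 72.5, 113 and 62.1 CPM in SN and 14.2, 79.0 and 64.2 CPM in DR. Zfp938 followed the same order, with 7.12, 8.3 and 11 CPM in SN Kif5A, against 26.2, 28.5 and 20.2 CPM in SN input, and 6.84, 7.18 and 13.0 CPM in DR Kif5A, against 30.4, 35.6 and 16.7 CPM in DR input (adjusted p = 0.743 and 0.42). Zfp952, of which a transcript not called coding was counted, had 17 reads in SN Kif5A, against 92 in SN input, and 11 reads in DR Kif5A, against 97 in DR input (adjusted p = 0.775 and 0.458). Zfp692 had 159 reads in DR Kif5A, against 13 in DR input (adjusted p = 0.516), and its DR Kif5A libraries, at 4.71, 2.87 and 1.19 CPM, overlapped with DR IgG, at 8.02, 5.45 and 0.0574 CPM. Zfp653 had 61 reads in SN Kif5A and 0 in SN input, at least 17.1-fold higher by the floor of 3 counts (adjusted p = 0.59). Its SN Kif5A libraries, at 1.5, 0.613 and 1.42 CPM, overlapped with those of SN IgG, at 1.9, 0 and 3.27 CPM.

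No member passed between the inputs of the 2 tissues. Of the 119 members tested, 0 differed between SN and DR input at an adjusted p under 0.05, where 4.12% of the 12215 genes tested did (2.33% higher and 1.78% lower in SN), and 3 were higher and 1 lower in SN at an unadjusted p under 0.05 (background 7.62% and 6.96%). DESeq2 called 1 member, Zfp521 (8.87% of all genes it tested). The count was 0 or 1 under every alternative run except the fit without SN input replicate 3, which called 9 of 121 (7.44%, against 20.6% of all genes). Zfp521, a multifinger cofactor known in mice for restraining fat cell development, had 42.7, 45.5 and 26.3 CPM in SN input, against 17.4, 18.9 and 12.5 CPM in DR input (log2 ratio 1.24 ± 0.31, adjusted p = 0.0714), with no overlap. Zfp704 had 72.3, 65.1 and 64.4 CPM in SN input, against 46.8, 35.3 and 48.9 CPM in DR input (log2 ratio 0.64 ± 0.24, adjusted p = 0.239). Zfp526 had 4.07, 2.5 and 5.17 CPM in SN input, against 0.67, 1.57 and 1.59 CPM in DR input (log2 ratio 1.64 ± 0.57, adjusted p = 0.201). Zfp612 was the low one, with 10.2, 5.52 and 10.8 CPM in SN input, against 19.9, 17.0 and 17.6 CPM in DR input (log2 ratio -1.02 ± 0.35, adjusted p = 0.197). In bulk tissue, fewer cells of a type and less RNA per cell cannot be told apart.

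Members with other known roles are given as group means ± SD of 3 libraries. Zfp598, the ubiquitin ligase that senses collided ribosomes, had 35.3 ± 10.5 CPM in SN Kif5A, 62.1 ± 47.4 in SN IgG and 29.8 ± 4.77 in SN input, and 18.4 ± 8.24 CPM in DR Kif5A, 27.4 ± 16.6 in DR IgG and 20.6 ± 4.86 in DR input. Zfp622, a factor in maturation of the large ribosomal subunit, had 55.2 ± 2.85 CPM in SN Kif5A, 54.9 ± 13.2 in SN IgG and 45.6 ± 17.3 in SN input. Zfp746, known as the Parkin substrate PARIS that represses Ppargc1a, had 52.4 ± 14.3 CPM in DR Kif5A, 62.3 ± 38.8 in DR IgG and 29.4 ± 1.61 in DR input. None of these passed in any comparison. Zfp638, a cofactor of adipocyte differentiation in mice, had 61.3, 67.3 and 50.1 CPM in DR IgG, against 29.0, 23.2 and 18.6 CPM in DR input (log2 ratio 1.33 ± 0.50, adjusted p = 0.156), with no overlap. Zfp609, a partner of the cohesin loader Nipbl, had 16.5, 28.7 and 17.2 CPM in DR Kif5A, against 12.5, 4.77 and 11 CPM in DR input (log2 ratio 1.14 ± 0.52, adjusted p = 0.554). Its log2 ratio of DR IgG over DR input was 1.41 ± 0.52 (adjusted p = 0.142), and that of DR Kif5A over DR IgG was -0.225 ± 0.542. Zfp935, whose values are uncertain because all of its 50-base stretches stand in other genes too, had 40.2, 132 and 66.3 CPM in DR IgG, against 12.7, 11.9 and 18.1 CPM in DR input (log2 ratio 2.49 ± 0.86, adjusted p = 0.124), also without overlap. Of the others that are always named, Zfp608, Zfp644, Zfp652, Zfp664, Zfp800, Zfp830 and Zfp932 had no unadjusted p under 0.05 in any comparison.

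Among the repressors, Zfp809, which silences murine leukaemia proviruses in mouse embryonic stem cells, had 46.0 ± 11.6 CPM in SN Kif5A, 47.1 ± 9.99 in SN IgG and 27.8 ± 2.86 in SN input, and 44.5 ± 14.0 CPM in DR Kif5A, 47.8 ± 38.4 in DR IgG and 27.8 ± 5.28 in DR input. Its inputs were equal in the 2 tissues. Zfp568, a KRAB protein that represses a placental Igf2 promoter in mice, had 9.0 ± 9.16 CPM in SN Kif5A, 11.7 ± 9.16 in SN IgG and 9.26 ± 0.113 in SN input. Zfp960 had 25.7, 13.5 and 5.91 CPM in SN Kif5A, 0.584, 16.4 and 0.772 CPM in SN IgG and 12.4, 15.2 and 4.15 CPM in SN input. In dorsal root Zfp960 had 30.8, 30.5 and 4.04 CPM in Kif5A, 49.8, 25.2 and 0.631 CPM in IgG and 7.54, 6.09 and 6.56 CPM in input. Replicate 3 was the low library of Zfp960 in both DR precipitates and in SN input, while the DR inputs were even.

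Over the 18 libraries, the genes most like Zfp869 by Pearson correlation of log2(CPM + 0.5), among 12671 genes, were Nr1h2 (0.912), Snw1 (0.902) and Vps26a (0.897). Those most like Zfp960 were Guf1 (0.892), Zfp276 (0.89) and Ikbkb (0.878). The libraries share their group structure and depth, and these values are descriptions.

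The authors' deposited table lists fold changes and false discovery rates per transcript rather than per gene. In the authors' deposited table for sciatic nerve, 16 of 156 member transcripts (10.3%) had a rate under 0.05 for Kif5A against IgG, all higher in Kif5A, against 6.69% of all its transcripts. In the authors' deposited table for dorsal root, 9 of 166 (5.42%, against 6.59% of all) did, 8 higher and 1 lower. Zfp882 is the member gene with the same transcript in both lists, at log2 fold changes of 2.54 in SN and 2.39 in DR in the authors' deposited table. For Kif5A against input, the authors' deposited table had 2 of 156 member transcripts under that rate in SN (1.28%, against 1.19% of all), 1 higher and 1 lower, and 4 of 166 in DR (2.41%, against 2.9%), 1 higher and 3 lower. In DR, log2 fold changes in the authors' deposited table were 2.32 for Zfp869, -2.04 for Zfp560, -3.07 for Zfp947 and -6.41 for Zfp932. These are tests of the same libraries at the level of transcripts.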

How the data were processed

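RNA of 18 libraries (Kif5A precipitate, IgG precipitate and input of SN and DR, 3 each) was amplified with SMART-Seq v4, per the labels' protocols. CASAVA 1.8.2, edgeR and mm10/GRCm38 are named in the submitters' processing notes; the aligner, counting rule and strand setting are not stated there or in the labels. The authors deposited 1 table per tissue with raw counts per transcript, together with log2 ratios and, per comparison, p-values with their adjusted rates, which the authors computed. Rows without a gene name (0.138 to 0.2368% of counts) were left out.

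Counts of transcripts found in both tables were summed per gene. edgeR 4.0.16 (R 4.3.3; TMM, filterByExpr, robust quasi-likelihood, Benjamini-Hochberg over all genes) was fitted to the 12 precipitates for Kif5A against IgG, to all 18 libraries for comparisons with input and to the 6 inputs for SN against DR, with group means as terms. DESeq2 1.42.0, limma 3.58.1, other scalings, no filter, a replicate block, compared groups only, all transcripts of a tissue's own table and leaving out each library were alternatives. Groups came from the sample titles. The edgeR script was tested on simulated data. Intervals and floors (3 counts over a group) cover counting error only, and reads carry no molecular identifiers.

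The members and the gene lists were chosen with earlier results of these data known, and the KRAB split was added after seeing the data, as a description. Genes are named with values if called, if among the 4 smallest unadjusted p under 0.05 in each direction of a comparison, if among the 8 highest per length in input, if at 0 in the IgG libraries of a tissue with at least 20 counts in its Kif5A libraries (or the reverse), or if of a known role. Neighbours on chromosome 8 and Mphosph8 were added after their values were seen. The 3 repeats are independent pools per the series' design text. A sequence of 1 member is not reported here.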

Additional observations from a re-analysis of the deposited data

How the results depend on the processing

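No log2 ratio changed direction under any alternative for the genes followed, those that the naming rule picked in a comparison by p or by counts at 0. The ratio of Zfp940 in SN Kif5A against IgG went from 6.67 to 0.0 with a library left out. Other genes given with a ratio, such as Zfp609, Zfp638, Zfp935 and Zfp868, were not followed. The counts of called members changed as follows. DESeq2 called 12 in SN Kif5A against IgG, 5 in DR Kif5A against IgG, 5 in the difference between tissues, 1 in DR Kif5A against input, 15 in SN IgG against input, 16 in DR IgG against input and 1 in SN against DR input, where edgeR called 0, 0, 0, 0, 4, 2 and 0. Over all genes DESeq2 called 3.28%, 1.21%, 1.51%, 1.48%, 11.2%, 11.2% and 8.87% in the same order, and of the members 9.68%, 4.03%, 4.03%, 0.862%, 12%, 12.8% and 0.847%. The fit of the compared groups alone called 3 in DR Kif5A against input (3.16% of all genes). It called 0 in IgG against input of SN and of DR (0.0411% and 0.0% of all genes). Counting all transcripts of a tissue's own table also gave 0 in both IgG comparisons (0.0377% of all genes in SN and 0.0% in DR). Scaling by library size alone gave 4 in DR IgG against input (2.38% of all genes). Leaving out each library in turn gave 0 to 14 calls in DR IgG against input, 0 to 7 in SN IgG against input, 0 to 9 in SN against DR input and 0 in the other comparisons. Where these gave 14, 7 and 9 members, all genes were called at 10.6%, 6.69% and 20.6%. The cause was not tested. Scaling by library size alone moved the median log2 ratio of all genes by 0.33 in DR Kif5A against input, 0.18 in SN Kif5A against input and 0.24 in DR IgG against input.

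Replicate numbers recur in all groups, but the labels do not say that a number marks a shared pool. Deviations of libraries with the same number correlated between -0.02 and 0.36, not above 0.1 in every pair of any comparison, and 14 of 18 libraries correlated best with their own number. With the replicate block, 1 member was called in SN against DR input (Zfp521, adjusted p = 0.0265; 5.58% of all genes), 3 in DR IgG against input (4.9%) and 3 in SN IgG against input (5.17%), and 0 elsewhere. Where a group held 0 or 1 reads, depth allows only a bound or a wide interval.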
